A study of Mus musculus with 6 samples.

Results

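The Toll-like receptor genes of mouse bone marrow derived macrophages (BMDMs) are described here before and after a brief exposure to lipopolysaccharide (LPS), the outer membrane glycolipid of Gram-negative bacteria. The 10 receptors are Tlr1, Tlr2, Tlr3, Tlr4, Tlr5, Tlr6, Tlr7, Tlr8, Tlr9 and Tlr13, chosen by name with earlier results of these data known. Each was found once among the 55335 genes of the deposited count table, and all 10 were among the 15687 genes with enough counts to be tested. BMDMs were grown from the bone marrow of wild-type C57BL/6 mice in medium conditioned by L929 fibroblasts, which supplies macrophage growth factor. Total RNA was sequenced from 3 libraries of cells given PBS and 3 libraries of cells given LPS, all after 1 h. The labels state neither the LPS dose nor the age of the mice, which the study's methods describe as young adult males. The labels number the libraries 1 to 3 in each group and call these numbers batches, without saying whether they stand for separate animals or cultures. The p-values therefore measure the spread between these libraries, which may be technical.

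Toll-like receptors are membrane proteins that recognise conserved microbial molecules through an outer leucine-rich repeat domain and signal through an inner TIR domain. In macrophages, TLR1, TLR2, TLR4, TLR5 and TLR6 act mainly at the cell surface on bacterial lipids, lipoproteins and flagellin. TLR3, TLR7, TLR8, TLR9 and TLR13 act in endosomes on nucleic acids. TLR4, with its co-receptors, is the receptor for LPS itself.

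The libraries held between 37787611 and 41516330 counts, of which the 10 receptors took 0.157% to 0.172% in PBS and 0.217% to 0.232% in LPS. Values per group are CPM, counts divided by the library total and by edgeR's TMM factor, given as mean ± SD with n = 3 libraries, and 3 counts corresponded to at most 0.0919 CPM. The TMM factors lay between 1.148 and 1.153 in PBS and between 0.864 and 0.872 in LPS, so every fold change depends on the scaling. When libraries were scaled by their totals alone, the median over all tested genes went from -0.01 to -0.42 in log2 fold change, and the share of rises among the calls moved from 50.4% to 29% (1213 rises and 2964 falls). All 7 macrophage markers were well above the floor in every library, and their summed level, mostly Lyz2, was 29550 to 30820 CPM in PBS and 32290 to 32640 CPM in LPS. None of the 7 passed the criteria of a call; at the adjusted p alone 5 were higher and 1 lower with TMM (Fcgr1, log2 fold change -0.48, edgeR adjusted p = 2.62e-10), and 0 were higher and 6 lower with library size alone.

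Of the 10 receptors, 2 rose and 0 fell. A call required that edgeR's quasi-likelihood test gave an adjusted p below 0.05 and that the log2 fold change exceeded 1 in size. Tlr2 and Tlr5 were the ones that rose. Over all tested genes, 10.5% rose and 10.4% fell by the same criteria. At the adjusted p alone, 3 receptors were higher in LPS (Tlr1, Tlr2 and Tlr5) and 3 were lower (Tlr4, Tlr8 and Tlr9), against 32.9% and 34.9% of all tested genes. Tlr3, Tlr6, Tlr7 and Tlr13 did not pass that threshold. With library size alone, 2 receptors rose and 1 fell, beside 7.73% and 18.9% of all tested genes, and at the adjusted p alone 2 were higher and 8 lower, beside 15% and 65.9%. The counts of calls were thus near the background. Their median log2 fold change was 0.03 with TMM and -0.37 with library size alone, and 6 of the 10 lay above the median of all genes under each of the 4 scalings tried. In bulk RNA, fewer cells of a type and less RNA per cell cannot be told apart.

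**Figure D1:**
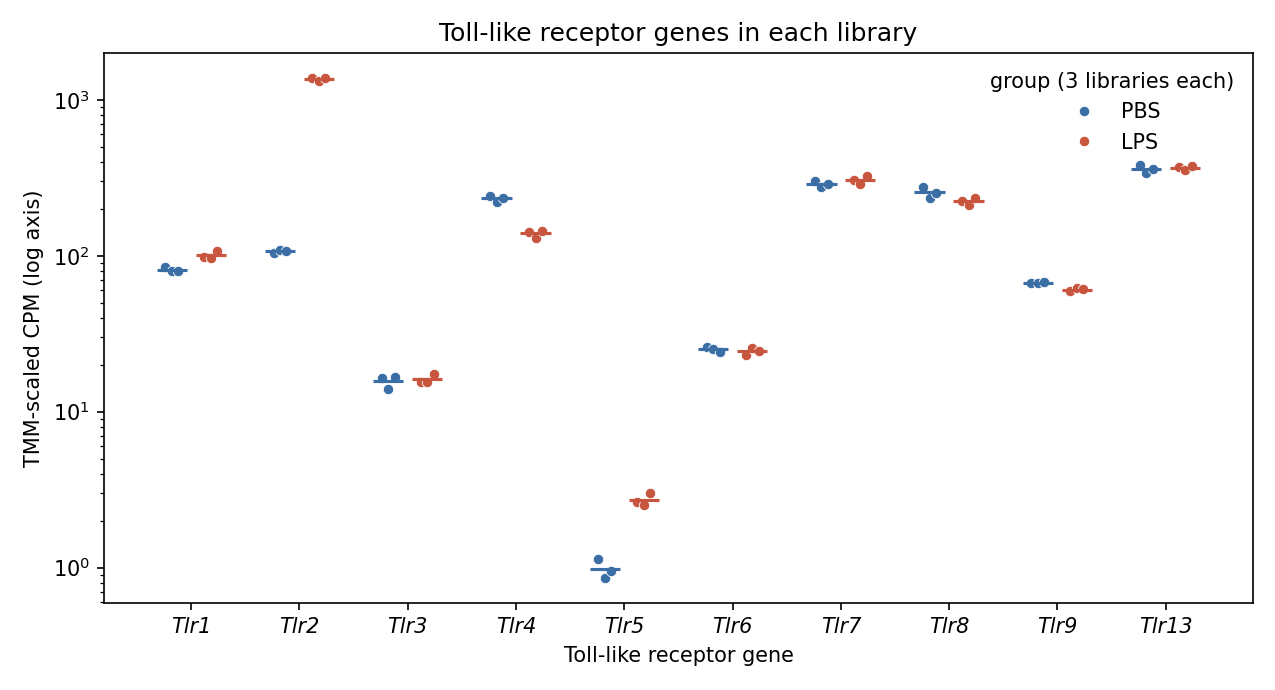
Each point is the TMM-scaled CPM (log axis) of one receptor gene in one library, blue for PBS and red for LPS, with a bar at the mean of 3 libraries. The Tlr2 points in LPS lie near 1358 CPM, far above the PBS points near 107 CPM, while the points of Tlr3, Tlr6, Tlr7 and Tlr13 overlap between the groups.

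Tlr2, the receptor for bacterial lipoproteins, had the largest change of the 10. It had 4988, 4886 and 4921 counts in PBS libraries 1 to 3 and 46285, 43211 and 46624 counts in LPS libraries 1 to 3. All 3 LPS libraries were far above all PBS libraries, and the spread within each group was small. The mean rose from 107 ± 1.70 to 1358 ± 29.6 CPM, which was 12.8-fold. Its log2 fold change was 3.67 (SE 0.04, 95% interval 3.59 to 3.75, edgeR adjusted p = 1.94e-22), higher than that of 97.8% of all tested genes. Within batches 1, 2 and 3 the log2 difference was 3.72, 3.61 and 3.68.

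The sequence before the Tlr2 gene is shown because this was the receptor that moved most. Tlr2 lies on chromosome 3 from 83836272 to 83841767 of GRCm38, on the minus strand (GENCODE M21). The RefSeq start used for its promoter lies 159 bp inside the GENCODE gene, so the stretch given here is the 91 bases at chr3:83841768-83841858 (minus strand, RefSeq table on GRCm38.p6) that precede both starts. Capitals mark 2 overlapping matches to the NF-κB consensus, 163 to 173 bases before the RefSeq start.
Tlr2: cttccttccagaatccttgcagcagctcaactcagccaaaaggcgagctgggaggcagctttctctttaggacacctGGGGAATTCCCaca
Of 32851 RefSeq windows of 250 bases, 7.25% held such a match on either strand. A match describes letters in the sequence and is not evidence of binding.

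Tlr5, the flagellin receptor, was the least abundant of the 10 and the other one that rose. It had 54, 39 and 44 counts in PBS and 88, 82 and 103 counts in LPS. The groups did not overlap, although the LPS libraries held no more than 103 counts each. Its level went from 0.984 ± 0.138 to 2.72 ± 0.271 CPM, a log2 fold change of 1.46 (SE 0.16, 95% interval 1.12 to 1.81, adjusted p = 3.3e-07 by edgeR's test). With TMM the within-batch differences of 1.21, 1.54 and 1.67 all lay above the threshold of 1. With library size alone the log2 fold change was 1.06 (adjusted p = 1.37e-05 by edgeR's test), past both criteria by a narrow margin in fold. Its 95% interval, 0.347 to either side, reached below 1.

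Markers of dendritic cells, another cell type that bone marrow cultures can hold, were also higher in LPS. Of 4 conventional dendritic cell markers 3 rose (Flt3, Zbtb46 and Xcr1), and the summed level of the 4 was 2.06 to 2.45 CPM in PBS and 6.37 to 7.24 CPM in LPS. Xcr1 had only 2, 1 and 2 counts in PBS, under the floor of 3, and 27, 17 and 15 counts in LPS, so the size of its rise is uncertain. The marker that did not rise, Clec9a, had a log2 fold change of 0.38 with TMM and -0.02 with library size alone. Of 4 plasmacytoid dendritic cell markers 3 rose: Siglech from a mean of 2.13 to 4.47 CPM, Ccr9 from 2.30 to 6.00 CPM and Spib from 0.991 to 2.23 CPM. With library size alone 0 of these 4 passed both criteria and 3 passed the adjusted p. The sum of this list, 170.9 to 180 CPM in PBS and 232.6 to 243.7 CPM in LPS, was almost all Tcf4, which had a log2 fold change of 0.40 with TMM and -0.004 with library size alone. No marker of either list was at 0 in every library. Summed markers of B cells (2.88 to 3.17 CPM in PBS, 2.88 to 3.64 CPM in LPS), T cells (20.4 to 22.3 and 30.4 to 30.9 CPM, nearly all Cd4), neutrophils (23.1 to 23.3 and 29.3 to 31.3 CPM) and fibroblasts (11.3 to 12.2 and 13.1 to 14.3 CPM) were low beside the macrophage markers. So was the conventional dendritic cell sum. The neutrophil marker Ly6g had 3 counts or fewer in each library. At the adjusted p alone with TMM, 1 of 2 tested B cell, 1 of 1 T cell, 3 of 4 neutrophil and 0 of 4 fibroblast markers were higher. With library size alone the same counts were 0, 1, 0 and 0. The part of any of these cell types in the difference of Tlr5 was not tested.

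The 250 bases before the Tlr5 gene are given for comparison with Tlr2, as the other receptor that rose. They lie at chr1:182954538-182954787 on the plus strand (RefSeq table on GRCm38.p6), directly before the shared GENCODE and RefSeq start at 182954788.
Tlr5: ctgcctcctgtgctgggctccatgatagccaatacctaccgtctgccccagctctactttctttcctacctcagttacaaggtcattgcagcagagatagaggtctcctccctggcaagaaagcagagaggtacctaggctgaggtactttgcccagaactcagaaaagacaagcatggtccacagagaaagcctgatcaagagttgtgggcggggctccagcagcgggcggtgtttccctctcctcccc
No part is in capitals, since none of the 4 motifs searched has its letters in this window. The motifs were the NF-κB consensus, TGANTCA (the AP-1 element, in 6.75% of all windows), the interferon response element (a pair of GAAA copies with any 2 bases between them, in 2.98%) and GAGGAAGT (a PU.1 element, in 2.44%), each on both strands. Windows were on hand for 8 of the 10 receptors. Besides Tlr2, the NF-κB consensus was found before the RefSeq start of Tlr3 and TGANTCA before that of Tlr9. Tlr1 and Tlr6 each had 2 RefSeq windows. The interferon response element was in 1 window of Tlr6 (2 overlapping matches) and GAGGAAGT in 1 window of Tlr1. The other window of each held none of the 4 motifs. The Tlr6 window with the matches, chr5:64959167-64959416, lies within the GENCODE gene. The RefSeq start of Tlr3 lies 700 bp inside the GENCODE gene, so the Tlr3 match lies within that gene, while the Tlr2 match precedes both starts. The Tlr3 site is shown because Tlr3 carried a match to the same consensus as Tlr2 and had no detectable difference with TMM. With library size alone the log2 fold change of Tlr3 was -0.37 (edgeR adjusted p = 0.000227). The site reads as follows at chr8:45410572-45410601 on the minus strand, within an annotated GENCODE exon and 202 to 211 bases before the RefSeq start.
Tlr3: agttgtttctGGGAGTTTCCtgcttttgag

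Tlr4, the LPS receptor on chromosome 4 (66827584 to 66930284, plus strand), was lower in LPS. Its counts were 11559, 10042 and 10764 in PBS and 4766, 4267 and 4896 in LPS. Every LPS library lay below every PBS library, at well under the PBS level. The mean was 233 ± 10.3 CPM in PBS and 139 ± 7.11 CPM in LPS, 1.68-fold higher in PBS, with a log2 fold change of -0.75 (SE 0.04, 95% interval -0.83 to -0.66, adjusted p = 1.9e-11 by edgeR's test). It passed the adjusted p and not the fold criterion. The within-batch differences were -0.77, -0.77 and -0.70. With library size alone the log2 fold change was -1.15 and passed both criteria.

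Tlr1 and Tlr6, whose products pair with TLR2 to recognise triacylated and diacylated lipoproteins, had much smaller differences than Tlr2. Tlr1 was at 84.3, 79.48 and 79.93 CPM in PBS and 98.78, 96.17 and 106.9 CPM in LPS. The groups did not overlap. The log2 fold change was 0.31 (SE 0.04, 95% interval 0.22 to 0.40, adjusted p = 3.65e-06 by edgeR's test). With library size alone the groups overlapped and the log2 fold change of Tlr1 was -0.10. It then passed the adjusted p in the opposite direction (0.0472 by edgeR's test). Tlr6 was at 26, 25.21 and 24.27 CPM in PBS and 22.94, 25.55 and 24.5 CPM in LPS, and the groups overlapped. Its log2 fold change was -0.05 (95% interval -0.16 to 0.06, adjusted p = 0.436 by edgeR's test). With library size alone it was -0.45 (adjusted p = 4.56e-07) and with upper quartile scaling -0.19 (adjusted p = 0.00405), both by edgeR's test.

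The values of Tlr1 and Tlr6 are uncertain in part because the genes share sequence. Of the 3322 distinct 31-base stretches in Tlr1 exons, 20% also occur in other genes, 607 of them in Tlr6, and for Tlr6 the share is 16.6% of 3709. Both genes lie on the minus strand of chromosome 5, Tlr1 at 64924679 to 64933563 and Tlr6 at 64952031 to 64960097. The longest identical run is 229 bp, longer than a read as the study's methods describe it, and lies in the coding sequence of both, at chr5:64925537-64925765 in Tlr1 and chr5:64953828-64954056 in Tlr6. It is given here because the reads of a pair that lies wholly inside it cannot be assigned to one gene.
Shared by Tlr1 and Tlr6: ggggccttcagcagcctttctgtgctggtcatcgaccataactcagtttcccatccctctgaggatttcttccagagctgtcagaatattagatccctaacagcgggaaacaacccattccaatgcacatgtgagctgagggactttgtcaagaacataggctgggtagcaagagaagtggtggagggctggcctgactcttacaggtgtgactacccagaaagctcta
How such reads were counted is not given in the sources used here. Tlr2, Tlr5, Tlr7, Tlr8, Tlr9 and Tlr13 share no 31-base stretch with another gene, and Tlr4 shares 0.667%.

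With TMM the endosomal receptors had small differences. Tlr13, the receptor for bacterial ribosomal RNA, was at 382.6, 336.9 and 361.9 CPM in PBS and 369.4, 352.2 and 378.5 CPM in LPS, and the groups overlapped. Its log2 fold change was 0.03 (95% interval -0.07 to 0.12, adjusted p = 0.624 by edgeR's test) with TMM and -0.38 (adjusted p = 3.29e-07 by the same test) with library size alone. Tlr3, the receptor for double-stranded RNA, had 781, 632 and 771 counts in PBS and 518, 505 and 591 in LPS. Its CPM overlapped between the groups, with a log2 fold change of 0.04 (95% interval -0.12 to 0.19, adjusted p = 0.693 by edgeR's test). Tlr3 is also the only receptor whose exons overlap another gene, the antisense gene Gm45542 on the opposite strand, which had at most 2 counts in any library. With TMM, these intervals leave out a change as large as 1 on the log2 scale in either direction.

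Tlr7 and Tlr8 are neighbouring single-stranded RNA sensors on the minus strand of the X chromosome, at 167304929 to 167330558 and 167242696 to 167264329. Tlr7 was at 299.8, 276.9 and 287.1 CPM in PBS and 304.6, 288.1 and 322.1 CPM in LPS. The groups overlapped, and the log2 fold change was 0.08 (SE 0.04, 95% interval -0.004 to 0.17, adjusted p = 0.0829 by edgeR's test). With the batch number as a block, the difference of 0.08 had an adjusted p of 0.015 by the same test. The within-batch values were 0.02, 0.06 and 0.17. With library size alone the log2 fold change of Tlr7 was -0.32 (adjusted p = 1.76e-06 by the same test). Tlr8 was at 277.3, 235.8 and 254.2 CPM in PBS and 224.6, 212.2 and 233.2 CPM in LPS. All LPS libraries lay below the PBS libraries by a narrow margin, with a log2 fold change of -0.20 (SE 0.05, 95% interval -0.30 to -0.09, adjusted p = 0.0018 by edgeR's test). With library size alone the log2 fold change of Tlr8 was -0.60 (adjusted p = 5.6e-09 by the same test). Tlr9, the receptor for unmethylated CpG DNA, was at 67.1, 66.54 and 67.58 CPM in PBS and 59.54, 61.74 and 60.79 CPM in LPS. The groups did not overlap, and the log2 fold change of -0.14 (SE 0.04, 95% interval -0.22 to -0.07, adjusted p = 0.00168 by edgeR's test) was the smallest in size of the 6 that passed the adjusted p with TMM. With library size alone that of Tlr9 was -0.55 (adjusted p = 1.97e-10 by the same test).

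In TMM-scaled CPM the groups did not overlap for 6 receptors, with LPS higher in 3 and lower in 3. Over all tested genes, LPS was higher without overlap in 33.9% and lower in 36.6%. Scaled by library size alone, only Tlr1 overlapped between the groups. Tlr2 and Tlr5 were then higher in every LPS library, and Tlr3, Tlr4, Tlr6, Tlr7, Tlr8, Tlr9 and Tlr13 lower. The share of all tested genes without overlap was not computed under that scaling. By rank among all tested genes, the log2 fold changes of Tlr2 and Tlr5 lay at the percentiles 97.8 and 92.6 and that of Tlr4 at 14.9. The other 7 receptors lay between the percentiles 36.2 and 74.4.

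**Figure D2:**
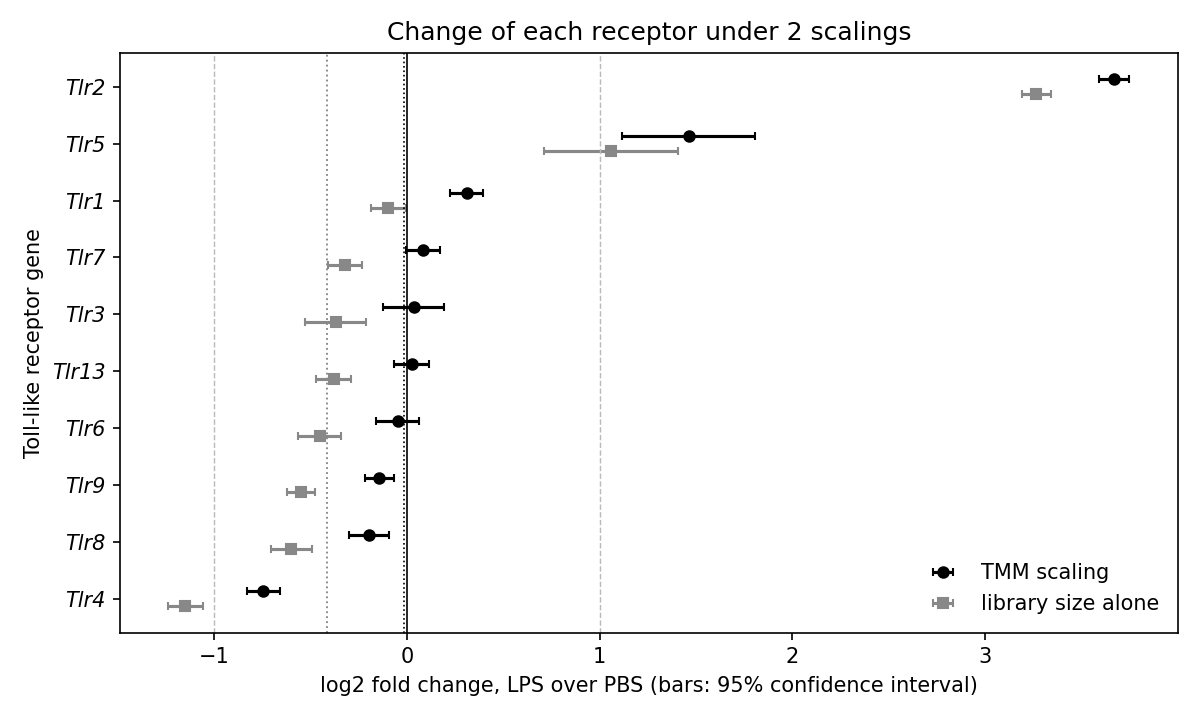
Points give the log2 fold change of each receptor, LPS over PBS, with 95% intervals, under TMM scaling (black circles) and library size alone (grey squares); dotted lines mark the median of all tested genes under each scaling (-0.01 and -0.42) and dashed lines the fold criterion of 1 in either direction. Tlr2 and Tlr5 lie above the upper dashed line under both scalings, while Tlr4 lies below the lower dashed line with library size alone, at -1.15, and above it with TMM, at -0.75.

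To compare the receptors with each other, CPM was divided by the length of each gene's merged exons in kb. In PBS the highest levels were those of the endosomal receptors Tlr13 (83.8 ± 5.32 CPM per kb), Tlr8 (71.3 ± 5.80) and Tlr7 (70.5 ± 2.81). Tlr8 and Tlr7 could not be ordered, since their ranges over libraries overlapped. Next came Tlr4 at 41.9 ± 1.84, Tlr2 at 35.3 ± 0.564, Tlr1 at 24.3 ± 0.795 and Tlr9 at 19.3 ± 0.150 CPM per kb. Tlr6 followed at 6.75 ± 0.232, Tlr3 at 3.02 ± 0.286 and Tlr5 at 0.205 ± 0.0288 CPM per kb. Apart from Tlr8 and Tlr7, no neighbours in this order overlapped.

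In LPS the order opened with Tlr2, at 450.5 ± 9.83 CPM per kb. Tlr13 (85.2 ± 3.10), Tlr7 (74.7 ± 4.17) and Tlr8 (62.3 ± 2.95) came next, without overlap between neighbours. Tlr1 at 30.1 ± 1.68 stood above Tlr4 at 24.99 ± 1.28 CPM per kb, but these changed places when the length of the longest transcript was used. Tlr9 at 17.5 ± 0.317, Tlr6 at 6.53 ± 0.352, Tlr3 at 3.09 ± 0.212 and Tlr5 at 0.568 ± 0.0565 CPM per kb closed the order as they did in PBS.

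**Figure D3:**
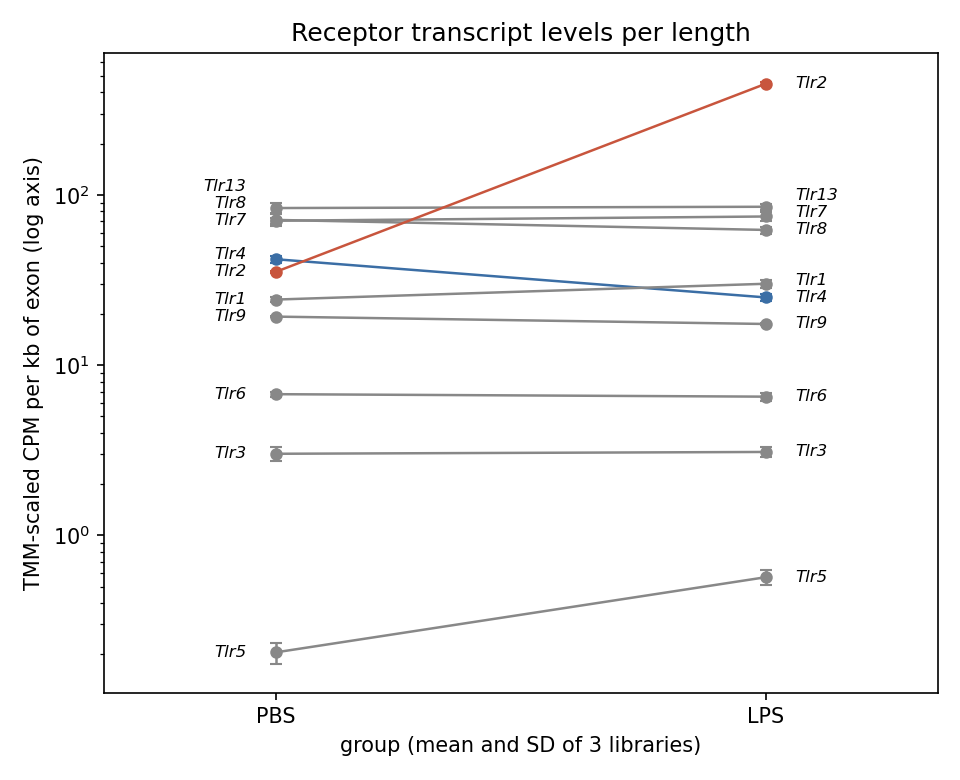
Lines join the mean level of each receptor in PBS and in LPS in TMM-scaled CPM per kb of exon (log axis), with SD over 3 libraries as bars. Tlr2 (red) goes from the fifth place, at 35.3, to the first, at 450.5 CPM per kb, and Tlr4 (blue) from 41.9 to 24.99 CPM per kb.

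The summed level of the 5 surface receptors went from 110.9, 106.6 and 108 CPM per kb in PBS to 519.4, 498.9 and 519.6 CPM per kb in LPS. Tlr2 made up most of the sum in LPS. Among the other surface receptors, the mean level went from 41.9 to 24.99 CPM per kb for Tlr4 and from 6.75 to 6.53 for Tlr6. For Tlr1 it went from 24.3 to 30.1 and for Tlr5 from 0.205 to 0.568. The sum of the 5 endosomal receptors was 262.1, 233.7 and 247.9 in PBS and 243.2, 232.3 and 252.7 CPM per kb in LPS, and the groups overlapped with TMM. These sums depend on the scaling. With library size alone all 5 endosomal receptors were lower in LPS, with log2 fold changes from -0.32 (Tlr7) to -0.60 (Tlr8). Surface receptors thus made up 29.7%, 31.3% and 30.3% of the total in PBS and 68.1%, 68.2% and 67.3% in LPS. Tlr2 alone made up 9.32% to 10.6% in PBS and 58.9% to 60.1% in LPS. These shares are taken within a library and do not depend on the scaling between libraries.

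Ratios within a library were used for the same reason. The log2 ratio of Tlr2 to Tlr4 counts was -1.21, -1.04 and -1.13 in PBS and 3.28, 3.34 and 3.25 in LPS. In PBS there were 0.458 Tlr2 counts for each Tlr4 count, and in LPS 9.78. The ratio was on opposite sides of 0 in the groups, a difference of 4.42 on the log2 scale. The log2 ratio of Tlr1 to Tlr6 was 1.70, 1.66 and 1.72 in PBS and 2.11, 1.91 and 2.12 in LPS, a difference of 0.36. That of Tlr7 to Tlr8 was 0.11, 0.23 and 0.18 in PBS and 0.44, 0.44 and 0.47 in LPS, a difference of 0.28. In all 3 ratios the groups did not overlap, and within each batch the LPS library had the higher ratio. Each gave p = 0.1 by the exact two-sided permutation test (adjusted p = 0.1 over the 3 ratios), which is the lowest value possible with 10 ways to split 6 libraries into equal groups.

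**Figure D4:**
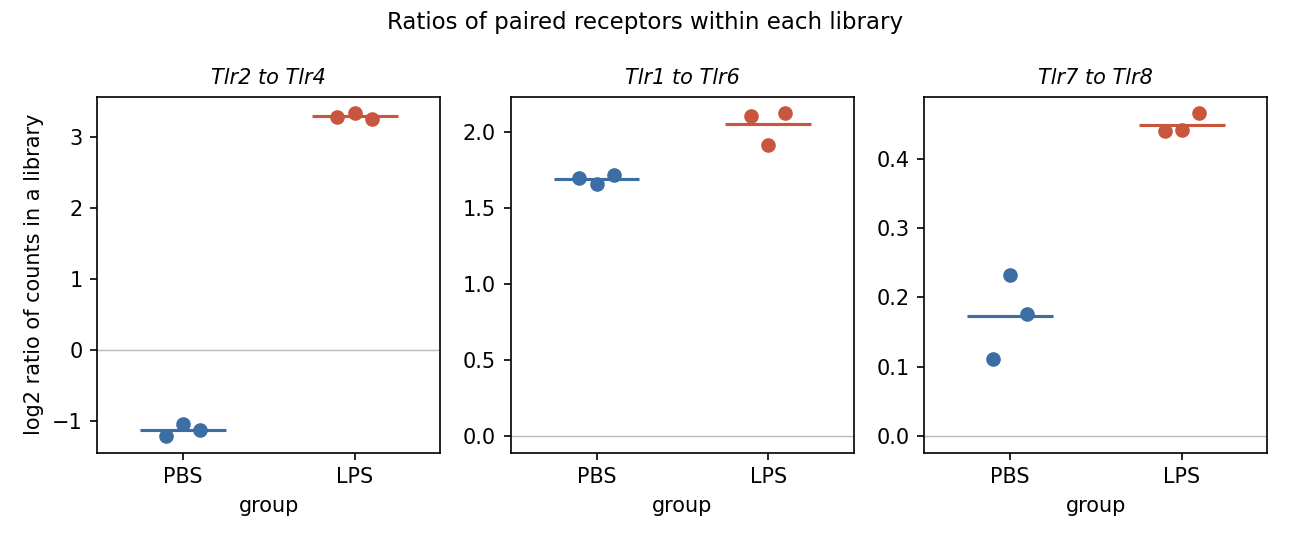
Each panel plots the log2 ratio of the counts of a receptor pair in each library (points) with the group mean (bars), and the panels have separate vertical axes. Mean ratios move from -1.13 to 3.29 for Tlr2 to Tlr4, from 1.69 to 2.05 for Tlr1 to Tlr6 and from 0.17 to 0.45 for Tlr7 to Tlr8, with no overlap between PBS and LPS.

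The genes that work with the receptors were counted in lists. Over all tested genes, 10.5% rose and 10.4% fell with TMM. At the adjusted p alone, 32.9% were higher and 34.9% lower with TMM, and 15% and 65.9% with library size alone. Tlr11 and Tlr12, endosomal receptors for profilin of protozoan parasites, had 9 to 19 counts in each library, and neither passed the test, with log2 fold changes of -0.21 (adjusted p = 0.61) and 0.10 (adjusted p = 0.816) by edgeR's test. Of 14 co-receptors, chaperones and processing enzymes, 1 rose and 0 fell, and at the adjusted p alone 9 were higher and 2 lower. The list's median log2 fold change was 0.15 with TMM and -0.26 with library size alone, under which 1 was higher and 11 were lower. The one that rose was Cd14, which hands LPS to the TLR4 complex, from 19310, 17641 and 18358 counts in PBS to 120406, 119924 and 122739 counts in LPS. Its log2 fold change was 3.19 (SE 0.03, adjusted p = 4.12e-22 by edgeR's test). Ly96, which encodes the LPS-binding partner MD-2 of TLR4, had a log2 fold change of 0.24 with TMM and -0.16 with library size alone. Unc93b1, which escorts endosomal receptors out of the endoplasmic reticulum, had 0.19 with TMM and -0.22 with library size alone. Ctsl, a protease that cleaves endosomal receptors, was the least changed with TMM, at -0.03 (adjusted p = 0.487 by edgeR's test), and was at -0.435 with library size alone.

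Of 11 TIR adaptors and first kinases, 2 rose and 1 fell, and at the adjusted p alone 7 were higher and 2 lower. With library size alone 4 were higher and 4 lower at the adjusted p. Irak2, a kinase of the receptor-proximal signalling complex, rose by 2.00 on the log2 scale (adjusted p = 3.27e-19 by edgeR's test) and Traf3, a ubiquitin ligase of the TRIF branch, by 1.05 (adjusted p = 1.23e-13). Tirap, the adaptor that brings MyD88 to TLR2 and TLR4, fell by 1.04 (adjusted p = 5.58e-11 by the same test). Myd88, used by every receptor here except Tlr3, had a log2 fold change of 0.66 and passed the adjusted p alone. Sarm1 had the smallest difference, -0.01 (adjusted p = 0.971 by edgeR's test), at 9 to 30 counts in each library. With library size alone Traf3 was at 0.65 and 1 member of the list rose. The list's median log2 fold change was 0.40 with TMM and -0.01 with library size alone.

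Of 7 receptor-level inhibitors, 1 rose and 0 fell, and at the adjusted p alone 4 were higher and 1 lower. With library size alone 2 were higher and 3 lower at the adjusted p. The list's median log2 fold change was 0.32 with TMM and -0.08 with library size alone. Tnfaip3, the ubiquitin-editing enzyme A20, was the one that rose, by 6.70 on the log2 scale (adjusted p = 7.7e-25 by edgeR's test). Rnf216, a ubiquitin ligase that acts on Toll-like receptors, had the smallest difference, -0.16 (adjusted p = 0.00165 by edgeR's test). The 5 read-out genes of LPS sensing, Tnf, Il6, Il1b, Nfkbia and Cxcl2, all rose, the least being Nfkbia, the inhibitor of NF-κB, by 4.79 on the log2 scale. These lists were written with results of the same libraries known and are not independent evidence of a direction.

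**Figure D5:**
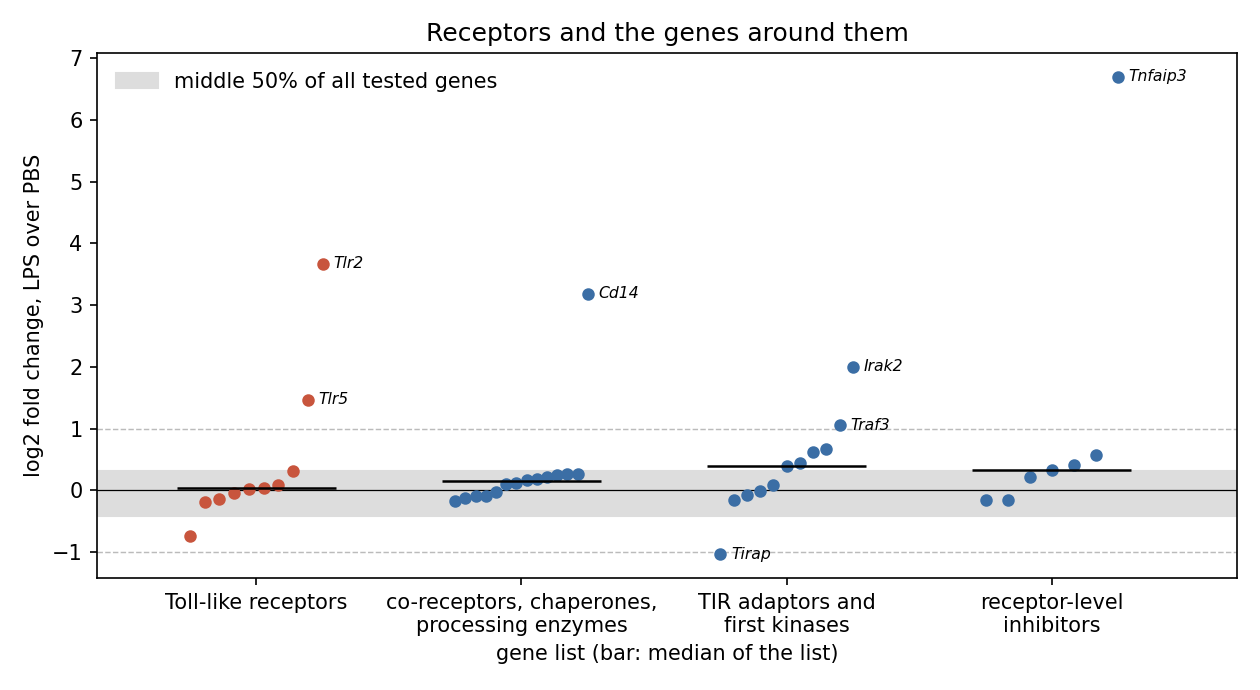
Each point is the log2 fold change of one gene, LPS over PBS with TMM scaling, for the 10 receptors (red) and 3 lists of genes that work with them (blue), with a bar at the median of each list and a grey band over the middle 50% of all tested genes, from -0.42 to 0.32. The list medians are 0.03 for the receptors, 0.15 for co-receptors, chaperones and processing enzymes, 0.40 for TIR adaptors and first kinases and 0.32 for inhibitors (-0.37, -0.26, -0.01 and -0.08 with library size alone), and only the named genes lie beyond the dashed lines at 1 and -1.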

How the data were processed

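Total RNA of BMDMs was sequenced by the authors from 3 PBS and 3 LPS libraries at 1 h (TruSeq Stranded Total RNA Globin kit, paired-end). Per the submitters' processing notes and the study's methods, the authors checked reads with FastQC 0.11.9, aligned them to GRCm38 with HISAT2 2.1.0, handled alignments with SAMtools 1.17 and counted genes with featureCounts 2.0.0. The deposited values are raw counts per gene without normalization. The annotation release, strand setting and treatment of reads with several matches are not given in the sources used here. Groups, replicate numbers and columns were matched by the labels. Of the 55335 identifiers, 55154 matched GENCODE M21 with versions removed, which also gave coordinates and exon lengths.

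Counts were analysed in R 4.3.3 with edgeR 4.0.16 (filterByExpr at its defaults, 15687 genes kept, TMM scaling, quasi-likelihood test, Benjamini-Hochberg adjustment over all tested genes). A gene was called where the adjusted p was below 0.05 and the log2 fold change exceeded 1 in size. Standard errors came from the quasi-likelihood F statistic, and the common biological coefficient of variation was 0.0426. Ratios of receptor pairs were compared by an exact two-sided permutation test. All libraries entered each fit, with no covariate. The same numbers mark the same batch in the labels; after subtracting group means, libraries of the same number correlated at -0.0139, 0.0822 and 0.0387 across genes, and the batch number was added as a block in an alternative. No pair of libraries in a group agreed within sampling noise (chi-square per degree of freedom of 5.44 or more). Molecular identifiers were not used, so the floor of 3 counts reflects counting error alone.

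Alternatives were library size alone, upper quartile scaling and the size factors of DESeq2 in place of TMM, DESeq2 1.42.0 and limma voom (limma 3.58.1) in place of edgeR's test, testing all genes with at least 1 count in some library, requiring 10 counts in every library, the block, and leaving out each library in turn. Functions were tested on simulated data. The receptors, the gene lists and the tests were chosen with earlier results of these data known. Named genes were the 10 receptors and, in each list, up to 4 genes past both criteria with the largest absolute log2 fold change and the gene with the smallest; read-out genes are given by their count and smallest change, and Ly96, Unc93b1, Myd88 and the cell type markers were named outside this rule, after their values were seen. Promoter windows and motifs were read from the RefSeq table on GRCm38.p6.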

Additional observations from a re-analysis of the deposited data

How the results depend on the processing

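The log2 fold change of each receptor was judged by its direction and its adjusted p. The fold criterion, which Tlr4 crossed with library size alone (-1.15), was not part of this. Of 389 values under alternative settings, 362 kept their direction and, where one was given, their side of the adjusted p threshold, or stayed within 1.5 times the count. Scaling by library size alone moved more of the others than any other setting: over all tested genes the falls came to 2964 and the adjusted p alone passed 2354 higher and 10337 lower genes; among the receptors 1 fell and 8 were lower at the adjusted p alone (5 with upper quartile scaling), and 1 TIR adaptor or kinase rose (1 with upper quartile scaling too). The filter of 10 counts in every library left fewer genes to test and 1027 falls. The sign of the log2 fold change changed with library size alone for Tlr1 (-0.10), Tlr3 (-0.37), Tlr7 (-0.32) and Tlr13 (-0.38), and with upper quartile scaling for Tlr3 (-0.11), Tlr7 (-0.06) and Tlr13 (-0.12). Leaving out each library in turn gave ranges of -0.04 to 0.081 for Tlr3 and -0.021 to 0.068 for Tlr13, with signs below 0 without PBS library 2 or LPS library 3. Tlr6 passed the adjusted p with library size alone (-0.45) and upper quartile scaling (-0.19). Tlr7 passed it as higher in LPS with DESeq2's size factors (0.0379), DESeq2's test (0.0346) and the batch block (0.015). It also did so without PBS library 1 (0.0314) and without LPS library 2 (0.0122). With library size alone Tlr7 passed it as lower in LPS (-0.32, adjusted p = 1.76e-06 by edgeR's test). The cause was not tested. The batch block changed no other call among the receptors. The calls of Tlr2 and Tlr5 held under all 14 alternatives, with ranges over left-out libraries of 3.66 to 3.69 and 1.38 to 1.58. With 3 libraries a group, no exact permutation test could give a p below 0.1, and at its low counts Tlr5 had the widest interval of the 10.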
